A study of Mus musculus with 12 samples.

Results

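The transcripts described here were 8 genes for surface proteins by which sinusoidal and activated endothelium is recognised, namely Stab1, Stab2, Plvap, Lyve1, Vcam1, Icam1, Sele and Selp. They were given by name, with earlier results of these data known, and were matched by symbol to Ensembl gene IDs, which gave 8 genes of the 37620 in the count table. All 8 passed the filter on low counts in every comparison. RNA-seq had been carried out on bone endothelial cells (BECs) of c57/Bl6 mice (C57BL/6J in the methods of the study), an inbred strain, which were purified by their expression of endomucin, a sialomucin of bone capillaries and veins. Female and male mice were 2 or 65 weeks old, in 4 groups of 3 libraries. The groups shared strain, tissue (freshly isolated, labelled tibia) and purification, and no transgene or treatment was named for any of them. Whether the libraries of a group came from separate animals was not stated, so p-values measure only the spread between these samples.

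Sinusoids are the wide, thin-walled venous vessels of the marrow through which blood cells enter and leave it. Their endothelium carries scavenger receptors that clear waste macromolecules from blood, and openings bridged by diaphragms. Leukocytes and progenitors are first slowed by selectins and then held by immunoglobulin-type adhesion molecules, which bind integrins on the passing cell. Several of these proteins are not particular to endothelium: marrow macrophages carry Stab1, Vcam1 and Icam1 as well, marrow stromal cells carry Vcam1, platelets store P-selectin, and lymphatic endothelium and some macrophages carry Lyve1.

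In both sexes Stab1, Stab2, Plvap, Sele and Selp were far lower at 65 than at 2 weeks, from 5.86-fold lower for Stab1 in females to 39.03-fold lower for Plvap in males. Vcam1 and Icam1 differed much less. Neither was called between ages in females, and in males they were 1.63-fold and 1.47-fold lower. Lyve1 had the lowest mean level per kilobase of exon of the 8 at both ages, overlapping with Sele at 65 weeks, and none of its comparisons was called. No member was called between sexes, beside 0.0332% of genes at 2 weeks and 0.042% at 65 weeks.

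With age 5 of the 8 members were called lower in females and 7 of the 8 in males, by edgeR's quasi-likelihood test at a Benjamini-Hochberg adjusted p under 0.05. Calls were common among all genes: 29.5% of 15120 genes tested were called lower in females and 28.5% of 14959 in males, and 59.7% and 55.5% were called in either direction. In 5 members in females and 6 in males every library of 65 weeks lay below every library of 2 weeks, as for 41.6% and 39.4% of genes, and in 1 member in males, Lyve1, every one lay above, as for 26.0%. The median log2 fold change of the 8 members was -2.73 in females and -3.18 in males, beside 0.01 in each for all genes tested. The comparisons in females and in males share no library. With 1 male library left out, 6 to 8 members were called in males in either direction. The count was 8 without 2-week replicate 3, where Lyve1 was called higher, and 7 without 65-week replicate 3. It was 6 without replicate 1 or 2 of either age. When library totals replaced the scaling factors, the median of all genes moved to -0.13 in females and -0.11 in males.

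Promoter sequence was shown for 3 members that moved differently with age, Sele and Selp, which fell, and Icam1, which differed much less. The 250 bases before the annotated start were taken from RefSeq (GRCm38.p6) and are written 5′ to 3′ on the strand of the gene. Of the 8 members 5 had an entry, Stab1, Stab2, Icam1, Sele and Selp, and Plvap, Lyve1 and Vcam1 did not. Capitals mark the TATA box letters TATAAA in Sele (chr1:164047984-164048233, plus strand) and the symmetric kappaB letters GGAANTTCC in Icam1 (chr9:21015690-21015939, plus strand), and Selp (chr1:164115014-164115263, plus strand) held no searched motif.
Sele: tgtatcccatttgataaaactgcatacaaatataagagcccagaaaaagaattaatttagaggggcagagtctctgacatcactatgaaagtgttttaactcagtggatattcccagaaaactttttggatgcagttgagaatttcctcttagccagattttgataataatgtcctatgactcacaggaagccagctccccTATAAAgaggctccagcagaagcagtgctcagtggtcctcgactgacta
Icam1: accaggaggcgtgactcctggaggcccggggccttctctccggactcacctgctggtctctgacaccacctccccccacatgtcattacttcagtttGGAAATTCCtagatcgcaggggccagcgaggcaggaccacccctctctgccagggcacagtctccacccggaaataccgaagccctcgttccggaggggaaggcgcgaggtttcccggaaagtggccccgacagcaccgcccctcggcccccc
Selp: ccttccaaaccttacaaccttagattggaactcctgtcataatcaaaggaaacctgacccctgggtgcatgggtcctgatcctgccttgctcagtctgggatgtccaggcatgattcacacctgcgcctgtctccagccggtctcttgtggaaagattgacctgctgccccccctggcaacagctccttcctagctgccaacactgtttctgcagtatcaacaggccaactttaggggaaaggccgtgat
The 5 promoters were searched on both strands for these letters, for CAGGAAGT of ETS factors, for AGATAAG of GATA factors and for the kappaB decamer consensus. GGAANTTCC was found in Icam1 alone, as GGAAATTCC at bases 153 to 145 before the start, and in 0.813% of 32851 mouse promoters of the same length. TATAAA was found in Sele alone, at bases 49 to 44 before the start, and in 12.4% of promoters. The decamer consensus, held by 3.9% of promoters, CAGGAAGT, held by 2.69%, and AGATAAG, held by 2.74%, matched none of the 5. The kappaB decamer and GGAANTTCC can overlap one another. A match is only a match of letters, and the absence of one says nothing of a factor's binding. The 250 bases held 40.4% G and C in Sele, 53.6% in Selp, 53.2% in Stab2, 57.2% in Stab1 and 65.2% in Icam1.

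Total counts per library ran from 35012947 to 44569600 at 2 weeks and from 26044743 to 34088694 at 65 weeks, and the values below are counts scaled by the library total (CPM). The sex label of every library matched its Xist and Y-linked counts, although the library labelled male 65 weeks replicate 3 held 117 Xist counts beside 3 and 0 in the other males of that age, and female 2 weeks replicate 3 held 25 Y-linked counts beside 0 and 1 in the other females of that age. The endothelial label was checked with Emcn, the gene of endomucin, and with 22 pan-endothelial genes. Emcn was measured at 147 ± 32.8 CPM at 2 weeks against 5.004 ± 2.10 CPM at 65 weeks in females, and 197 ± 38.0 against 5.64 ± 0.971 CPM in males (SD over 3 libraries). The 22 endothelial genes summed to 3166 to 5872 CPM in the 2-week libraries and to 219 to 343 CPM in the 65-week libraries, none was at 0 in a whole group, and 22 of 22 were called lower at 65 weeks in each sex. Erythroid genes summed to 30369 to 57012 CPM across all libraries, so RNA of other blood cells was present at both ages. In such bulk samples fewer cells of a type and less RNA per cell cannot be told apart.

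**Figure D1:**
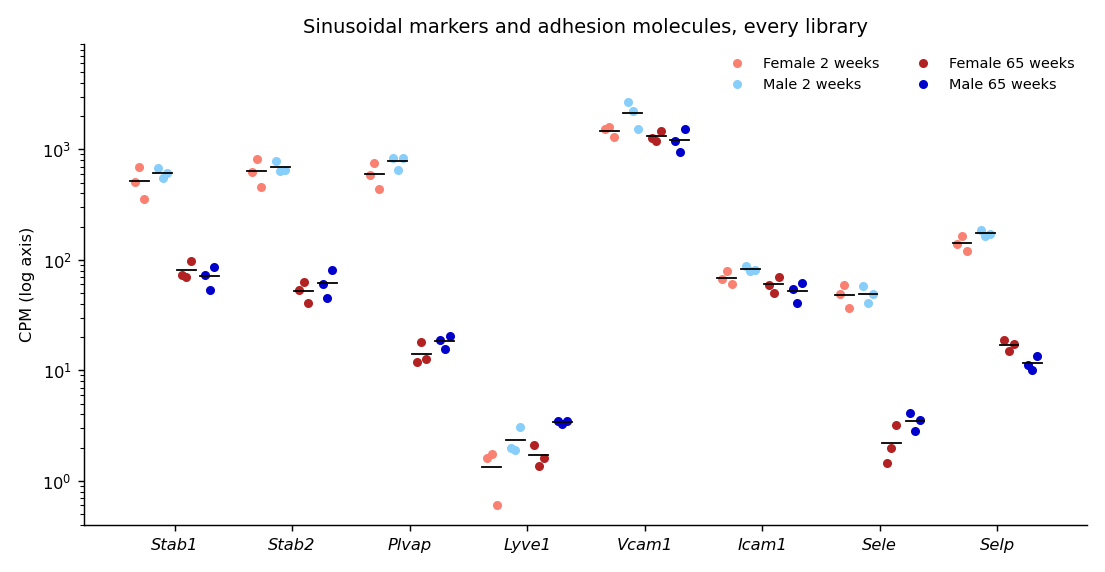
Level of each of the 8 genes in every library, in CPM on a log axis, with 1 point per library and a black line at the mean of each group of 3. Stab1, Stab2, Plvap, Sele and Selp separate by age in both sexes. Vcam1 overlaps between ages in both sexes, Icam1 overlaps in females but not in males, and Lyve1 lies below 4 CPM throughout.

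Stab1 and Stab2 encode stabilin-1 and stabilin-2, large scavenger receptors of sinusoidal endothelium, of which stabilin-2 is a clearance receptor for hyaluronan. Stab1 (ENSMUSG00000042286) lies on GRCm39 chromosome 14, 30860970 to 30890598, minus strand. It was measured at 512, 694 and 354 CPM at 2 weeks against 72.9, 69.9 and 98.5 CPM at 65 weeks in females, and 679, 556 and 608 against 73.0, 53.5 and 87.2 CPM in males. The lowest 2-week library lay well above the highest 65-week library in each sex. Stab1 fell with age, with a log2 fold change of -2.55 in females (SE 0.237, edgeR adjusted p = 5.17e-05) and -3.00 in males (SE 0.182, edgeR adjusted p = 9.72e-06). Nt5dc2, on the opposite strand, shares 113 of the 10288 exon bases of Stab1, and it too was lower at 65 weeks, at 58.9 ± 7.66 against 19.0 ± 2.45 CPM in females and 64.7 ± 3.84 against 22.6 ± 3.03 CPM in males (SD, n = 3 each). Reads in the shared bases cannot be told apart without the strand.

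Stab2 (ENSMUSG00000035459) lies on chromosome 10, 86675054 to 86843889, minus strand. Its level was 629, 819 and 455 CPM in females of 2 weeks and 53.4, 62.7 and 41.1 CPM in those of 65 weeks, and 779, 635 and 649 against 60.9, 45.3 and 80.9 CPM in the males. Again no library of one age reached those of the other. Stab2 fell with age, with a log2 fold change of -3.46 in females (SE 0.235, edgeR adjusted p = 1.17e-05) and -3.35 in males (SE 0.209, edgeR adjusted p = 1.09e-05). Within a library the counts of Stab1 per count of Stab2 were 0.777 to 0.848 in females and 0.872 to 0.937 in males at 2 weeks. At 65 weeks the range was 1.12 to 2.39 in females and 1.08 to 1.20 in males, so Stab1 made up the larger share of the stabilin counts in every 65-week library and the smaller share in every 2-week library.

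Plvap encodes the plasmalemma vesicle protein that forms the diaphragms of fenestrae and caveolae. It was the member with the largest change in both sexes. Plvap (ENSMUSG00000034845; chromosome 8, 71948674 to 71964506, minus strand) was measured at 586, 760 and 441 CPM at 2 weeks and 11.8, 18.2 and 12.6 CPM at 65 weeks in females. In males it stood at 843, 651 and 839 against 18.8, 15.7 and 20.7 CPM. The ages were thus separated by more than an order of magnitude, and Plvap fell with age, with a log2 fold change of -5.25 in females (SE 0.255, edgeR adjusted p = 3.13e-06) and -5.29 in males (SE 0.169, edgeR adjusted p = 1.03e-06). Of all genes tested 1.66% in females and 1.77% in males had a lower log2 change. Gtpbp3, on the opposite strand, shares 834 of the 3842 exon bases of Plvap and was measured at 17.1 ± 1.00 against 12.4 ± 0.998 CPM in females and 17.1 ± 1.90 against 12.3 ± 1.55 CPM in males (SD, n = 3 each). At 65 weeks the level of Gtpbp3 was thus of the same order as that of Plvap, and the part of their shared bases in the Plvap counts was not tested.

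Sele and Selp encode E-selectin and P-selectin, the lectins on which leukocytes roll. E-selectin is made by activated endothelium and, in marrow, by resting sinusoids, while P-selectin is stored in the granules of endothelial cells and platelets. Both lie on chromosome 1, plus strand, Sele (ENSMUSG00000026582) at 163867401 to 163886055 and Selp (ENSMUSG00000026580) at 163942833 to 163977595. Sele was measured at 49.3, 58.9 and 36.9 CPM at 2 weeks against 1.45, 1.99 and 3.24 CPM at 65 weeks in females, and 58.4, 41.1 and 49.3 against 4.10, 2.82 and 3.53 CPM in males. All 2-week libraries lay above all 65-week libraries, in which Sele was still covered by 42 to 112 counts. Sele fell with age, with a log2 fold change of -4.30 in females (SE 0.283, edgeR adjusted p = 1.02e-05) and -3.71 in males (SE 0.203, edgeR adjusted p = 6.21e-06).

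Selp was measured at 138.5, 165 and 119.6 CPM in females of 2 weeks and 18.7, 15.0 and 17.5 CPM in those of 65 weeks, and at 188, 165 and 173 against 11.1, 10.1 and 13.6 CPM in the males. Males were the higher sex at 2 weeks and the lower sex at 65 weeks, with no overlap at either age. Neither sex difference was called by edgeR. Of all genes tested, 9.97% had all males above all females at 2 weeks and 6.16% had all males below at 65 weeks. For Selp at 2 weeks the lowest male, at 165.343 CPM, lay just above the highest female, at 165.082 CPM. Selp fell with age, with a log2 fold change of -2.91 in females (SE 0.130, edgeR adjusted p = 2.36e-06) and -3.81 in males (SE 0.127, edgeR adjusted p = 1.03e-06). The 11 megakaryocyte and platelet genes moved with it: 11 of 11 were called lower at 65 weeks in each sex, and their summed level was 2366 to 4025 CPM in the 2-week libraries and 217 to 551 CPM in the 65-week libraries, with no listed gene at 0 in a whole group. The part of platelets or megakaryocytes in the fall of Selp was not tested. Gm16548, an antisense RNA within Selp, shares 919 of its 4413 exon bases but stayed at 32 counts or fewer.

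Vcam1 and Icam1 encode the immunoglobulin-type molecules that bind the integrins VLA-4 and LFA-1 on leukocytes. Vcam1 (ENSMUSG00000027962; chromosome 3, 115903598 to 115923355, minus strand) was measured at 1528, 1596 and 1305 CPM at 2 weeks against 1263, 1194 and 1475 CPM at 65 weeks in females, and 2676, 2232 and 1542 against 1185, 941 and 1544 CPM in males. The ages overlapped in both sexes. In females the difference was -0.04 on the log2 scale, with an approximate 95% interval from -0.24 to 0.17 (edgeR adjusted p = 0.789). In males Vcam1 fell, by a log2 value of -0.71 (SE 0.238 and edgeR adjusted p = 0.0365), a call that was lost without 2-week replicate 1 or 2 and without 65-week replicate 1 or 2 of the males, where the log2 difference was between -0.71 and -0.52. Across all 14 alternatives its adjusted p ran from 0.00767 to 0.125.

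Icam1 (ENSMUSG00000037405; chromosome 9, 20926672 to 20940113, plus strand) was measured at 67.8, 78.7 and 60.7 CPM in females of 2 weeks and 59.9, 50.6 and 70.2 CPM in those of 65 weeks, and at 88.2, 79.6 and 81.8 against 54.3, 40.5 and 62.2 CPM in the males. The ages overlapped in females and were apart in males. In females the log2 difference was -0.06, with an approximate 95% interval from -0.32 to 0.19 (edgeR adjusted p = 0.709). In males Icam1 fell, with one of -0.56 (SE 0.146, edgeR adjusted p = 0.0133).

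Lyve1 encodes a hyaluronan receptor of lymphatic and some sinusoidal endothelium. Lyve1 (ENSMUSG00000030787; chromosome 7, 110448585 to 110462460, minus strand) was measured at 1.61, 1.77 and 0.601 CPM at 2 weeks against 2.13, 1.38 and 1.60 CPM at 65 weeks in females, and 1.97, 1.91 and 3.08 against 3.51, 3.30 and 3.49 CPM in males, from 23 to 112 counts. Its ages overlapped in females. In males the 65-week libraries all lay above the 2-week libraries, yet the difference of 0.68 on the log2 scale (SE 0.256) did not pass the test (edgeR adjusted p = 0.0528), and it was called by DESeq2, with thinned counts and without 2-week male replicate 3. In females the difference was 0.50 (SE 0.417, edgeR adjusted p = 0.327).

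**Figure D2:**
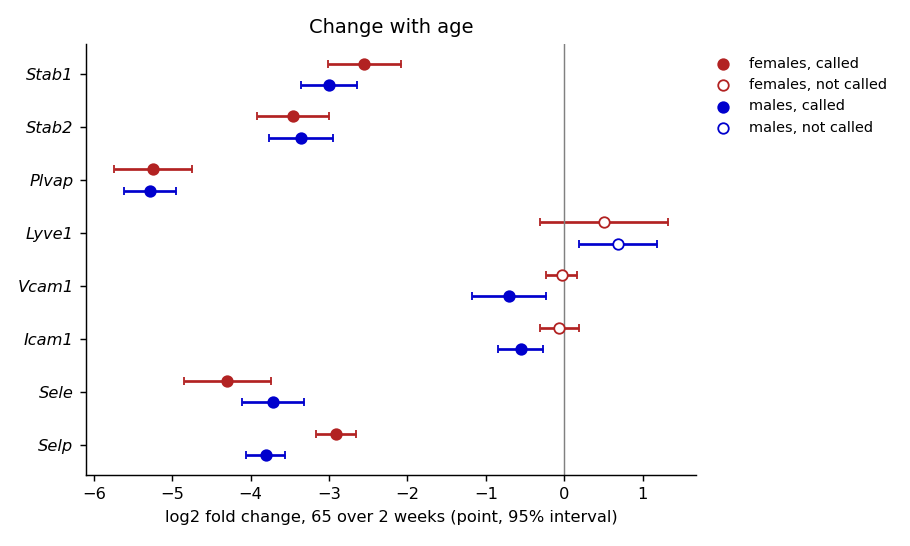
Change with age of each member in females and males, as the log2 fold change of 65 over 2 weeks with an approximate 95% interval (filled points passed an adjusted p under 0.05, open points did not). Plvap lies near -5 in both sexes, and the intervals of Vcam1 and Icam1 in females include 0.

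The members were ranked by level per kilobase of exon. At 2 weeks the order in both sexes was Vcam1, Plvap, Stab2, Stab1, Selp, Icam1, Sele and Lyve1. Vcam1 stood at 164 ± 17.0 and Plvap at 155 ± 41.5 CPM per kb in 2-week females, and at 239 ± 63.5 and 202 ± 28.6 CPM per kb in 2-week males (SD, n = 3 each). These 2 overlapped in each sex, as did Stab2 and Stab1. The other neighbours that overlapped at 2 weeks were Stab1 with Selp and Icam1 with Sele, both in females and neither in males.

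At 65 weeks Vcam1 stood alone at the top, at 146 ± 16.3 CPM per kb in females and 136 ± 33.8 CPM per kb in males (SD, n = 3 each). Icam1, in the sixth place at 2 weeks, held the second, with 12.1 ± 1.97 and 10.5 ± 2.21 CPM per kb. Stab1 and Stab2 followed, below Icam1 without overlap in females, whereas in males Icam1 overlapped with Stab1, Stab1 with Stab2 and Stab2 with Plvap. Plvap had 3.70 ± 0.903 CPM per kb in females, the sixth place, and 4.79 ± 0.652 CPM per kb in males, the fifth place. Its order with Selp differed between the sexes at that age: the 2 overlapped in females, as did Stab2 with Selp, whereas in males Plvap lay above Selp without overlap. Sele and Lyve1 were last and overlapped in both sexes, at 0.581 ± 0.240 and 0.410 ± 0.0932 CPM per kb in females and 0.908 ± 0.168 and 0.825 ± 0.0288 CPM per kb in males.

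Member counts were next set against the counts of the 22 endothelial genes in the same library, as a description without a test. At 2 weeks this ratio was nearly the same in all libraries for Plvap, which had 138 to 147 counts per 1000 endothelial counts. At 65 weeks Plvap had 40.4 to 53.1 in females and 71.6 to 81.9 in males, below every 2-week library. Among the 8 members it was the one with a mean ratio below that of 2 weeks in both sexes, at 0.332 times in females and 0.525 times in males. This rests on the sum of the list, in which Cdh5 took the largest share at 2 weeks, 13.9% in females and 13.7% in males, while at 65 weeks Pecam1 and Eng took 29.0% and 14.9% in females and 16.9% and 18.6% in males. Set against the single genes of the list, a comparison chosen after the values were seen, the log2 fold change of Plvap was lower than that of 18 of the 22 genes in females and of 16 in males. The genes with a deeper change included Cdh5, the VE-cadherin of endothelial junctions, at 45.3-fold and 53.3-fold lower, and Gpihbp1, which holds lipoprotein lipase on capillaries, at 62.3-fold and 48.7-fold lower.

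Stab2 had 149 ± 4.74 counts per 1000 endothelial counts in 2-week and 171 ± 18.9 in 65-week females, and 128 ± 13.2 and 253 ± 42.0 in males of those ages (SD, n = 3 each). Stab1 had 121 ± 9.09 and 270 ± 79.5 in females and 114 ± 7.69 and 290 ± 40.5 in males. Selp had 33.8 ± 3.56 and 57.1 ± 11.4 in females and 32.8 ± 3.02 and 47.4 ± 1.32 in males. On this scale Stab1 and Selp were thus higher at 65 weeks in every library of both sexes, although both were lower in CPM.

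Sele had 11.4 ± 0.351 counts per 1000 endothelial counts in 2-week and 7.51 ± 3.73 in 65-week females (SD, n = 3 each). In males of those ages it had 9.18 ± 0.687 and 14.4 ± 2.96 (SD, n = 3 each). Its mean was thus lower at 65 weeks in females and higher in males. The ages overlapped in females, with up to 11.79 at 65 weeks against up to 11.65 at 2 weeks, but not in males. The make-up of the list at 65 weeks also differed between the sexes, as given above. Whether this ratio changed differently in the sexes was not tested. For Sele itself, the test of an unlike age difference in the sexes gave no call (edgeR adjusted p = 0.556). For Vcam1, Icam1 and Lyve1 the ratio was more than an order of magnitude higher at 65 weeks. It was 12.3 times in each sex for Vcam1, 12.2 and 13.7 times for Icam1 and 19.0 and 33.0 times for Lyve1, in females and males. At 65 weeks Vcam1 alone had 3484 to 5495 counts per 1000 counts of all 22 endothelial genes together, against 270 to 488 at 2 weeks.

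Vcam1 and Icam1 are also made by marrow macrophages, and 14 macrophage genes were read beside them. In females 11 of the 14 were called higher and 1 lower at 65 weeks, and in males 4 were higher and 1 lower. None was at 0 in a whole group, and their sum was 3088 to 3500 CPM in females and 3189 to 5729 CPM in males at 2 weeks, against 4734 to 6077 and 4080 to 5875 CPM at 65 weeks. The 2-week male library with the least Vcam1, replicate 3, was also the lowest of its group in this sum. It was the lowest in the platelet sum too, at 2366 CPM beside 4025 and 3915 CPM in replicates 1 and 2. In the endothelial and marrow stromal sums replicate 2 was the lowest of these males. The 10 marrow stromal genes, among them Cxcl12 and Lepr, were called lower in 10 of 10 in each sex, with none at 0 in a whole group and a sum of 5519 to 8773 CPM in the 2-week and 1006 to 1663 CPM in the 65-week libraries. The part of macrophages in the levels of Vcam1, Icam1 and Stab1, and of stromal cells in that of Vcam1, was not tested.

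Per 1000 counts of the macrophage list, a ratio chosen after the values were seen, Vcam1 had 422 to 469 counts in 2-week females, 442 to 484 in 2-week males, 238 to 267 in 65-week females and 231 to 263 in 65-week males. The 2-week males, whose Vcam1 levels in CPM were spread widely, lay close together on this scale. Their platelet sum had the same order as Vcam1. It was 4025, 3915 and 2366 CPM in replicates 1, 2 and 3, beside 2676, 2232 and 1542 CPM of Vcam1. A ratio to the platelet list was not computed, so closeness particular to the macrophage list was not shown. Per macrophage count, Vcam1 in all 6 libraries of 65 weeks was below all 6 of 2 weeks. The same held on this scale for every other member except Lyve1, and the macrophage sum itself was higher at 65 weeks in females. Icam1 had 20.7 ± 2.10 and 11.4 ± 1.28 in 2-week and 65-week females and 18.9 ± 5.82 and 10.5 ± 0.471 in males (SD, n = 3 each). The ratio of Vcam1 to Icam1 counts within a library was 21.4 ± 1.14 in 2-week females, 25.7 ± 6.07 in 2-week males, 21.9 ± 1.47 in 65-week females and 23.3 ± 1.51 in 65-week males, with overlap among all 4 groups.

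Lyve1 was read beside the lymphatic endothelial genes Prox1, Pdpn, Flt4, Reln and Mmrn1, of which Flt4 is also carried by marrow sinusoids. Of these 5 genes 1 was called higher and 2 lower in females, and 1 higher and 3 lower in males. Their sum was 444 to 726 CPM in the 2-week libraries and 55.3 to 86.2 CPM in the 65-week libraries. At 2 weeks it was mostly Flt4, at 419 ± 134 and 446 ± 31.2 CPM in females and males, and Mmrn1, which platelets carry as well, at 141 ± 9.56 and 171 ± 31.4 CPM (SD, n = 3 each). The lymphatic genes Prox1 and Pdpn had group means of 1.40 CPM or less, and neither was called with age in females, while Prox1 was called lower in males. Their part in the level of Lyve1 was not tested.

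**Figure D3:**
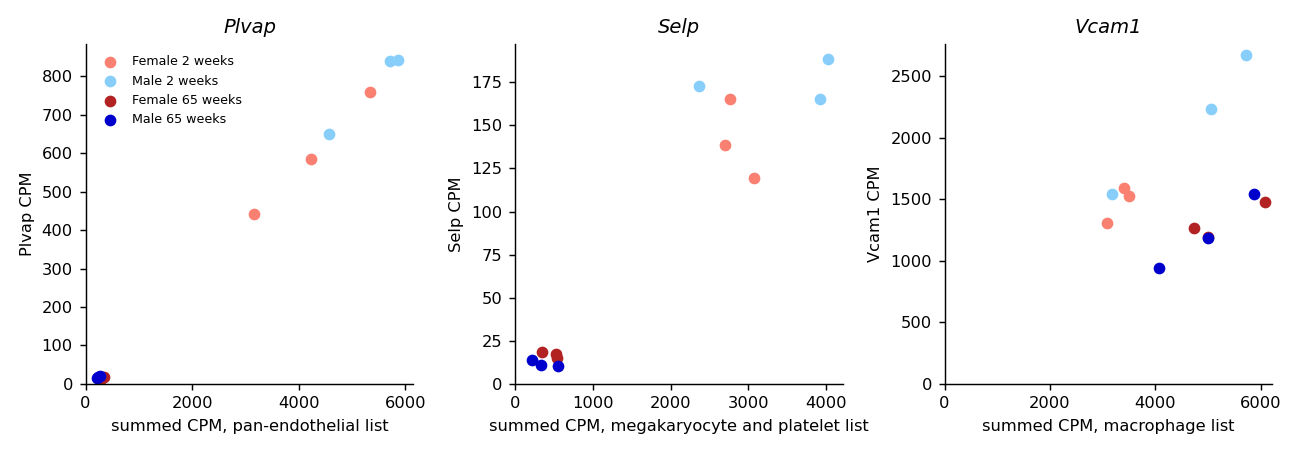
Level of Plvap, Selp and Vcam1 in CPM against the summed CPM of the pan-endothelial, the megakaryocyte and platelet, and the macrophage genes, with 1 point per library and colours for the 4 groups. Plvap and Selp fall into an upper 2-week and a lower 65-week cluster with their lists, whereas Vcam1 overlaps between ages and the 65-week libraries have less Vcam1 at a given macrophage sum.

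Whether the members differed between sexes was asked at each age. At 2 weeks 0 of the 8 members and 0.0332% of 15081 genes tested were called (edgeR). DESeq2 also called 0 members, and 3 members, Vcam1, Icam1 and Selp, had an unadjusted p under 0.05. Vcam1 had a log2 fold change of 0.53, male over female (SE 0.190, edgeR adjusted p = 0.244), but its libraries overlapped between sexes. Icam1 had one of 0.25 (SE 0.0921, edgeR adjusted p = 0.247) and Selp one of 0.30 (SE 0.109, edgeR adjusted p = 0.247), and in both all 3 males lay above all 3 females. Between the same libraries the median log2 difference was 0.43 for the 14 macrophage genes, 0.33 for the 22 endothelial genes, 0.25 for the 11 platelet genes and 0.16 for the 10 stromal genes. All genes of these 4 lists had a positive difference, and none was called. The other marker lists had a median of 0.08 (lymphatic endothelial), -0.26 (erythroid), -0.38 (B cell) and -0.49 (neutrophil), also with 0 genes called. The part of any of these lists was not tested.

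At 65 weeks 0 of the 8 members and 0.042% of 14287 genes tested were called between sexes by edgeR. DESeq2 called 1 member, Selp, and 2 members, Lyve1 and Selp, had an unadjusted p under 0.05. Selp had a log2 fold change of -0.58, male over female (SE 0.155, edgeR adjusted p = 0.241), and it was called by edgeR without male replicate 3. The summed platelet genes overlapped between sexes at that age, at 342 to 537 CPM in females and 217 to 551 CPM in males. Lyve1 had one of 1.00 (SE 0.292, edgeR adjusted p = 0.272), and one of 0.79 at 2 weeks (SE 0.362, edgeR adjusted p = 0.296).

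Lyve1 was thus the member whose male libraries lay above its female libraries at both ages. Such separation was common: 9.97% of the genes tested at 2 weeks and 9.32% at 65 weeks had all males above all females, and 11.8% and 6.16% had all males below. The approximate 95% intervals of the sex difference use normal quantiles and are narrower than the test with its few residual degrees of freedom allows. At 2 weeks those of Plvap and Lyve1 left out 0 at an unadjusted p of 0.0746 and 0.0604 (edgeR). At 65 weeks the interval ran from -0.88 to -0.27 for Selp, from 0.43 to 1.57 for Lyve1, from -0.56 to 0.18 for Stab1, from -0.19 to 0.65 for Stab2, from -0.03 to 0.74 for Plvap, from -0.45 to 0.21 for Vcam1, from -0.55 to 0.12 for Icam1 and from -0.07 to 1.34 for Sele. At 2 weeks it ran from 0.16 to 0.90 for Vcam1, from 0.07 to 0.43 for Icam1, from 0.09 to 0.52 for Selp, from 0.08 to 1.505 for Lyve1, from -0.17 to 0.63 for Stab1, from -0.26 to 0.47 for Stab2, from 0.02 to 0.73 for Plvap and from -0.31 to 0.36 for Sele.

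Whether the age difference itself was unlike in the sexes was tested with an interaction term over all 12 libraries. None of the 8 members was called by edgeR, and 0.00635% of 15747 genes were. DESeq2 called 1 member, and 3 members, Vcam1, Icam1 and Selp, had an unadjusted p under 0.05. Selp had the largest log2 term, -0.90 (SE 0.188, edgeR adjusted p = 0.127), a deeper fall in males, with a DESeq2 adjusted p of 0.00375 and a range from 0.00375 to 0.337 over all alternatives. It was also called by edgeR without 65-week male replicate 3. The terms of Vcam1 and Icam1 were -0.67 (SE 0.281, edgeR adjusted p = 0.38) and -0.49 (SE 0.215, edgeR adjusted p = 0.395), so their calls in males alone do not show a difference between the sexes.

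**Figure D4:**
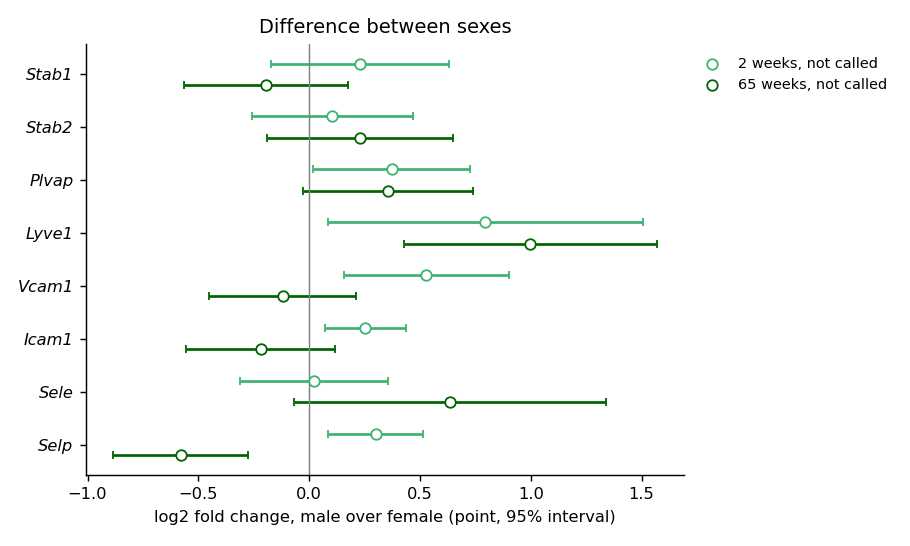
Difference between sexes for each member at 2 and 65 weeks, as the log2 fold change of male over female with an approximate 95% interval; all points are open because none passed an adjusted p under 0.05. Selp lies above 0 at 2 weeks and below 0 at 65 weeks, and Lyve1 lies above 0 at both ages.

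The genes that work with the members were followed with age in 8 lists, beside 30.2% of all genes tested called higher and 29.5% called lower in females, and 27.0% and 28.5% in males. Other adhesion molecules of endothelium were mostly lower, as Sele and Selp were: 12 of the 15 tested were called lower and 2 higher in each sex. Of the 22 pan-endothelial genes 22 were called lower in each sex, with a median log2 fold change of -4.26 in females and -4.62 in males. The medians of the adhesion, caveolar and sinusoidal lists were less deep, from -2.74 to -3.54. Pecam1, Esam and Cd34 of the adhesion list and Kdr of the caveolar list are also in the pan-endothelial list. Madcam1, the mucosal addressin that binds the integrin subunit Itgb7, stood in 2-week females at 13.0 ± 5.69 CPM and in males of that age at 10.7 ± 2.56 CPM (SD, n = 3 each) and had 3 counts or fewer in every 65-week library. Against a floor of 3 counts per library this was at least 133-fold lower in females and at least 95.3-fold lower in males, and such floors cover counting error only. Alcam, which binds CD6 on T cells, was 4.65-fold higher in females (edgeR adjusted p = 1.05e-05) and 5.88-fold higher in males (edgeR adjusted p = 8.86e-06).

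The partners of Plvap in caveolae were mostly lower too, as the pan-endothelial genes were. Of 9 genes tested 8 were called lower in each sex, among them Cav1, the coat protein of caveolae, with log2 fold changes of -3.73 and -4.53 in females and males (edgeR adjusted p = 3.28e-06 and 0.000137). Kdr, the VEGF receptor whose signal maintains fenestrae, had log2 fold changes of -5.08 and -5.35 (edgeR adjusted p = 2.73e-06 and 7.23e-07). The exception was Pacsin2, a membrane-bending protein, higher by 0.34 and 0.45 (edgeR adjusted p = 0.0176 and 0.0317), a call lost in both sexes when library totals replaced the scaling factors, in females without 65-week replicate 1, and in males without any 1 of the 2-week replicates or 65-week replicate 1 or 2.

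Other sinusoidal endothelial genes were mostly lower, as the stabilins and the pan-endothelial genes were. Lower calls were 11 of 14 in females and 12 of 14 in males, with 1 higher in each. Flt4, the receptor of VEGF-C, had log2 fold changes of -5.72 in females and -5.09 in males (edgeR adjusted p = 1.95e-06 and 6.99e-07). The gene called higher was Maf, a transcription factor that macrophages make as well, by 0.67 and 0.61 (edgeR adjusted p = 0.00045 and 0.0199), with the call in males lost under library totals and without 2-week replicate 2 or 3 or 65-week replicate 1. Of 14 other scavenger receptors 6 were called higher and 5 lower in females and 4 higher and 6 lower in males, in both directions as among all genes. Fcgr2b, the inhibitory Fc receptor of sinusoids, B cells and macrophages, was 7.90-fold and 7.36-fold higher (edgeR adjusted p = 1.95e-06 and 2.37e-05). Scarf1, a scavenger receptor described in endothelium, was 4.10-fold and 7.85-fold lower (edgeR adjusted p = 1.58e-05 and 3.37e-06).

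On the leukocyte side of the contacts, the counter-receptors were mostly higher at 65 weeks, 10 of 15 in females and 11 of 15 in males, with 3 and 2 lower. Itgal, the LFA-1 subunit that binds Icam1, was 4.74-fold and 4.39-fold higher (edgeR adjusted p = 2.42e-05 and 7.09e-06). Itgb1, which pairs with Itga4 to bind Vcam1 and is carried by most cells, was 1.42-fold and 1.97-fold lower (edgeR adjusted p = 0.00303 and 0.000442). Itga4 itself, named after its values were seen, was 2.16-fold and 2.13-fold higher (edgeR adjusted p = 0.000309 and 0.000342). The neutrophil genes, whose part was not tested, were called higher in 8 of 10 in females and 9 of 10 in males. Their sum was 5584 to 7700 CPM in the 2-week and 12498 to 27372 CPM in the 65-week libraries, and none was at 0 in a whole group. B cell genes, whose part in the counter-receptors and in Fcgr2b was not tested either, were called higher in 7 of 8 in each sex, with a sum of 246 to 338 CPM in the 2-week and 388 to 1571 CPM in the 65-week libraries and none at 0 in a whole group.

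Of 11 enzymes that build selectin ligands 4 were higher and 3 lower in females, and 3 higher and 2 lower in males, shares near those of all genes. Chst2, a sulfotransferase of L-selectin ligands, was 7.02-fold and 8.57-fold lower (edgeR adjusted p = 1.26e-05 and 4.46e-06), and Fut7, the fucosyltransferase of leukocytes, 1.52-fold and 2.08-fold higher (edgeR adjusted p = 0.0167 and 0.00448). The call of Fut7 in females was lost without any 1 of the 2-week female libraries. Of 10 hyaluronan genes 2 were higher and 6 lower in each sex. Among the lower ones, Cemip stood at 18.1 ± 2.99 against 0.0965 ± 0.0879 CPM in females (SD, edgeR adjusted p = 4.8e-06). In males it stood at 22.5 ± 4.66 against 0.123 ± 0.154 CPM (SD, edgeR adjusted p = 2.19e-05). Cd44, the hyaluronan receptor of leukocytes, which is also in the list of counter-receptors, was 2.24-fold and 2.18-fold higher (edgeR adjusted p = 7.5e-05 and 5.41e-05), beside Lyve1 and Stab2, the hyaluronan receptors among the members.

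Cytokine and NF-kappaB signalling induces Sele, Vcam1 and Icam1 in activated endothelium. Genes of this signalling, not all of them inducers, were higher in 16 of 19 tested in females and 12 of 20 in males, with 2 lower in each. Il1b was at 7.86 ± 1.73 CPM in 2-week and 65.0 ± 33.4 CPM in 65-week females, and at 5.70 ± 1.34 and 78.9 ± 21.7 CPM in males of those ages (SD, n = 3 each), 9.06-fold and 15.1-fold higher (edgeR adjusted p = 0.000136 and 2.45e-05). Tnf was higher, with log2 fold changes of 3.17 and 3.73 (edgeR adjusted p = 8.88e-05 and 0.000133) and stood at 3.98 ± 1.10 and 2.89 ± 0.820 CPM in females and males of 65 weeks (SD, n = 3 each). The receptors Il1r1 and Tnfrsf1a were lower, with log2 fold changes of -1.18 and -1.31 for Il1r1 (edgeR adjusted p = 0.00013 and 0.000302) and -0.57 and -0.72 for Tnfrsf1a (edgeR adjusted p = 0.00635 and 0.00106).

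**Figure D5:**
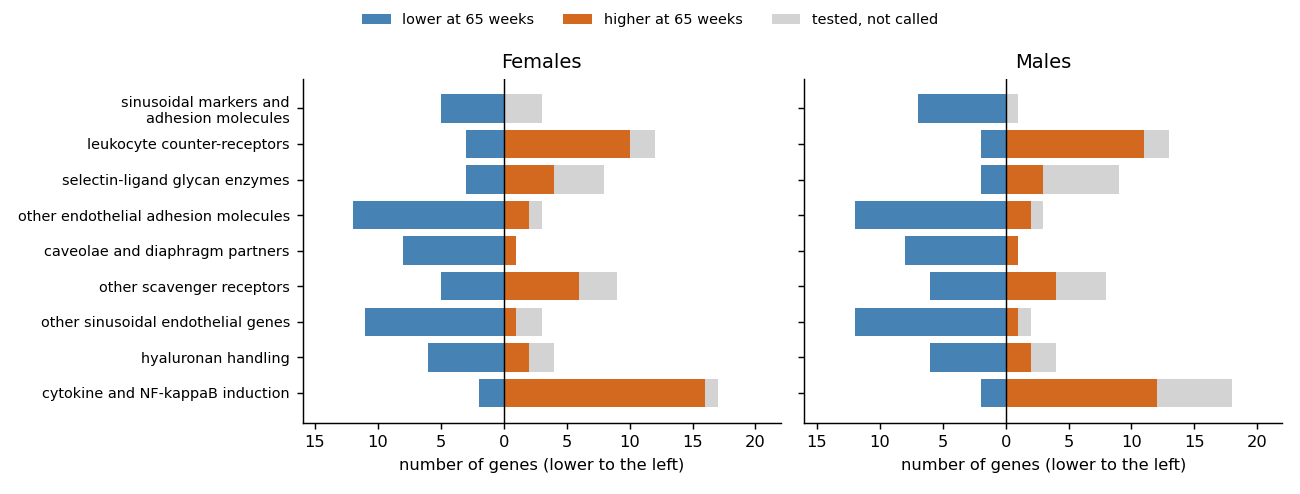
Number of genes called lower (left of 0), called higher or tested and not called (right of 0) at 65 against 2 weeks, for the 8 members and the 8 lists of genes that work with them, in females and males. Adhesion molecules, caveolar partners and sinusoidal genes lie mostly to the left, counter-receptors and cytokine genes mostly to the right.

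For each member the 3 protein-coding genes of closest pattern were sought by Pearson correlation of log2(CPM + 1) over the 12 libraries among 12933 genes. The 12 libraries form separate clusters by age, so the correlation of deviations from the group means is given instead of the pooled value, as a description over libraries that share depth and composition. The genes nearest to Stab1 were Enpp6, 2510009E07Rik and Srpx, with correlations of deviations of 0.917, 0.961 and 0.959. Nearest to Stab2 were Galnt15, Pxdn and Lamb2 (0.94, 0.956 and 0.931), and nearest to Plvap were Npr1, Clec14a and Efna1 (0.921, 0.862 and 0.935). Clec14a and Efna1 are known as endothelial surface proteins.

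Nearest to Sele were Tead1, Plpp3 and Magi1, with correlations of deviations of 0.89, 0.891 and 0.825. Nearest to Selp were Slco2a1, Angptl2 and Tcim (0.916, 0.925 and 0.798). Vcam1 had another neighbourhood, with Dse, Arhgap5 and Mrc1 (0.948, 0.915 and 0.971), of which Mrc1 encodes the mannose receptor of macrophages and sinusoids. Icam1 lay nearest to Alg11, Ndufaf5 and Tmem185a (0.93, 0.9 and 0.887), and Lyve1, the least abundant, had the loosest neighbours, Chmp5, Anxa3 and Atg101 (0.696, 0.659 and 0.575). Among the 28 pairs of members the correlation of deviations was highest for Stab1 and Icam1, at 0.905. It was 0.859 for Stab1 and Selp, 0.85 for Icam1 and Selp, 0.837 for Stab2 and Plvap, 0.833 for Stab1 and Sele and 0.731 for Vcam1 and Icam1, and ran from -0.072 to 0.69 for the other pairs.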

How the data were processed

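BECs of 4 groups (female and male, 2 and 65 weeks, 3 libraries each) were sequenced with paired reads of 100 nt. Per the study's methods, samples had been picked within each set by RNA quality. The deposited values are raw counts per gene. The labels name TopHat2, HTSeq and mm9 for processing, while the methods of the study name STAR, featureCounts and GRCm39, and this was not resolved. The annotation release, strand setting and treatment of multiply mapping reads are not given in the sources used here. The labelled molecule is polyA RNA, but the kit was for total RNA. Samples were grouped by labelled sex and age.

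Symbols and coordinates came from GENCODE M39 (GRCm39) by Ensembl ID, which matched 31052 of 37620 IDs, carrying 99.287% of counts, so an older annotation may have been counted. CPM was computed from library totals (26044743 to 44569600 counts), and levels of different genes were compared per kilobase of merged exons. Replicates differed by more than sampling noise (chi-square per degree of freedom 24.96 to 95.61).

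Genes were tested over the whole table with edgeR 4.0.16 in R 4.3.3 (quasi-likelihood F test after TMM scaling and filterByExpr at a minimum count of 10, with p-values adjusted by Benjamini and Hochberg and called under 0.05), within the 6 libraries of each sex or age, and over all 12 for the interaction. SEs were derived from F, and approximate 95% intervals from normal quantiles. The fits were tested on simulated data. Alternatives were DESeq2 1.42.0, other scalings, no low-count filter, a threshold of 0.01, thinning to the smallest library, a replicate block, 1 model of all 12 libraries and leaving out each library in turn. The members and gene lists were chosen with earlier results of these data known. All members were named, and from each list up to 3 called genes with the largest rise and up to 3 with the largest fall qualified, of which some are given. Ccl21a and Cd99 of the lists had no match.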

Additional observations from a re-analysis of the deposited data

How the results depend on the processing

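The falls of Stab1, Stab2, Plvap, Sele and Selp with age kept their direction and call in both sexes under all 14 alternatives. In males the calls of Vcam1 and Icam1 were lost at a threshold of 0.01, and that of Vcam1 also with the replicate block (log2 difference -0.69). Same-numbered libraries showed no clear shared deviation (correlations from -0.36 to 0.14), although replicate 2 was its own best match in both age comparisons. With 3 libraries per group this cannot exclude a pairing by number. With the replicate block 5 members were called with age in females, 6 in males, 0 between sexes at either age and 0 in the interaction, where 0 genes remained called.

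Counts of genes between sexes depended on the tool and on single libraries. At 2 weeks DESeq2 called 447 genes, 1 model of all 12 libraries 8, and leaving out each library gave 5 to 11. At 65 weeks DESeq2 called 398 genes and 1 member, library totals gave 10 genes, no low-count filter 105, 1 model of all libraries 254, and leaving out each library 5 to 830 genes and 0 to 1 member. In the interaction DESeq2 called 394 genes and 1 member, no filter gave 7 genes, thinning, the block and a threshold of 0.01 gave 0, and leaving out each library gave 0 to 750 genes and 0 to 1 member. The counts of 830 and 750 and both single members came without male 65 weeks replicate 3. The cause was not tested.

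Uncalled log2 differences near 0 changed sign. With 1 library left out, the age difference in females ran from -0.179 to 0.0215 for Vcam1 and from -0.209 to 0.0446 for Icam1, the sex difference at 2 weeks from -0.135 to 0.167 for Sele and from -0.0813 to 0.308 for Stab2, and that of Vcam1 at 65 weeks from -0.282 to 0.0377. The interaction ran from -0.251 to 0.189 for Plvap, from -0.122 to 0.300 for Stab2 and from -0.0778 to 0.540 for Lyve1. With thinned counts the sex difference of Sele at 2 weeks was -0.0468 and the interaction of Plvap 0.0206. By effective library size Lyve1 in 65-week males was at 3.57 CPM. Without Cdh5, the most abundant endothelial gene over all libraries and at 2 weeks but not at 65 weeks, the ratios per endothelial count of 65 over 2 weeks in males were 0.479 for Plvap and 1.32 for Selp.

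At 23 to 112 counts per library Lyve1 was measured least precisely.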
